A study of Homo sapiens with 2 samples.

Results

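The oligosaccharyltransferase (OST) is the enzyme complex of the endoplasmic reticulum that attaches the N-linked glycan to newly made proteins. Its subunits were described on a pair of arrays from KYSE-170 cells, an established line of human oesophageal squamous cell carcinoma. A set of 9 subunit genes was named (DDOST, RPN1, RPN2, DAD1, STT3A, STT3B, TUSC3, MAGT1 and OSTC), and a probe belonged to the set if its platform gene symbol, brought up to the current name, was 1 of these. The rule found 5 genes with 1 probe each (DDOST, RPN1, RPN2, STT3A under its older symbol ITM1, and TUSC3), of 12405 genes that had a named probe above 0 on both arrays. DAD1, STT3B, MAGT1 and OSTC are not analysed here. Among probes with 1 symbol, none matched their current symbols or older symbols that belong to 1 gene only. The set was selected on the measured ratio of DDOST between these same arrays, since DDOST was among the genes most lowered with miR-210, so that ratio is given as a description and supports nothing further.

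Both groups were KYSE-170 cells transfected with an oligoribonucleotide using Hiperfect. In the miR-210 group this was miR-210, and in the comparison group it was an oligoribonucleotide that the labels call ncRNA, whose sequence they do not give. The labels give no genotype, dose or time after transfection. Each group had 1 array, so every value is a single measurement and no difference has a replicate check, an SD between cultures or a p-value.

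In the OST, STT3A and STT3B are alternative catalytic subunits, and each defines a complex of its own. Ribophorin I (RPN1), ribophorin II (RPN2), DDOST (also called OST48) and DAD1 are shared by both complexes. The STT3A complex works at the protein translocon and carries OSTC and KRTCAP2, and the STT3B complex carries the oxidoreductase subunit TUSC3 or MAGT1 and glycosylates sites that the STT3A complex has skipped. miR-210 is a microRNA induced by hypoxia, and a microRNA lowers its target transcripts mainly through pairing with its seed.

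The mature sequences of the 2 arms of miR-210 are shown because the labels do not say which arm the transfected miR-210 copied. They are printed from RefSeq (GRCh38.p14, minus strand, chr11:568112-568133 for the 3p arm and chr11:568150-568171 for the 5p arm), 5′ to 3′, with bases 2 to 8, the seed, in capitals.
hsa-miR-210-3p: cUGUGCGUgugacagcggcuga
hsa-miR-210-5p: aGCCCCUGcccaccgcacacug
Each of these seeds occurred in 1 mature name only among 2370 in that table. The sequences complementary to the seeds are ACGCACA for the 3p arm and CAGGGGC for the 5p arm. Transcript sequences of the OST genes were not used here, so no site was looked for in them.

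Over 24267 probes each, the median intensity was 39 with ncRNA and 36 with miR-210, and the upper quartile was 162 and 150. Each difference is a log2 ratio, miR-210 over ncRNA, taken after quantile normalization, which gives both arrays the same distribution of values. Values in parentheses are deposited intensities, ncRNA first. The only error at hand is the scatter of probes of the same gene. It was taken from the 2 brightest probes of each of 251 genes with at least 2 probes at or above the median level. A single probe's log2 ratio had a SD of 0.44 around its gene. This SD leaves out differences between cultures and arrays. It was not computed apart for brighter probes such as those of the OST, where ratios scatter less. Of 10 epithelial and squamous markers 9 were at or above the median level, among them KRT5 (290 and 496), EPCAM (4502 and 6165) and KRT17 (1541 and 2736, 2.02-fold higher). TP63, a squamous transcription factor, was under that level and 2.44-fold lower with miR-210 (57 and 22). The log2 ratios of the 10 had a median of 0.50, and their summed intensity was 8259 with ncRNA and 11499 with miR-210. Of 6 fibroblast markers 2 reached that level (DCN and PDGFRB; sums of 329 and 318 over the 6), of 4 endothelial markers 2 did (KDR and VWF; sums of 223 and 174), and of 3 measured leukocyte markers none did, with PTPRC at 9 and 10 (sums of 41 and 50). The part of these markers in the OST values was not tested.

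Of the 5 measured OST subunits, DDOST alone was at least 2-fold apart between the arrays, and it was lower with miR-210. By that fold 6.95% of all 12405 genes were lower and 7.05% higher, and since DDOST is the gene the set was chosen for, nothing is read from the count. The other 4 subunits, RPN1, RPN2, STT3A and TUSC3, had log2 ratios between -0.27 and 0.35, all smaller than the probe SD of 0.44. The same held for 65.2% of the 6684 genes at or above the median level. Without DDOST the median log2 ratio of the measured subunits was -0.08, and with it -0.23, beside 0.00 for all 12405 genes.

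**Figure D1:**
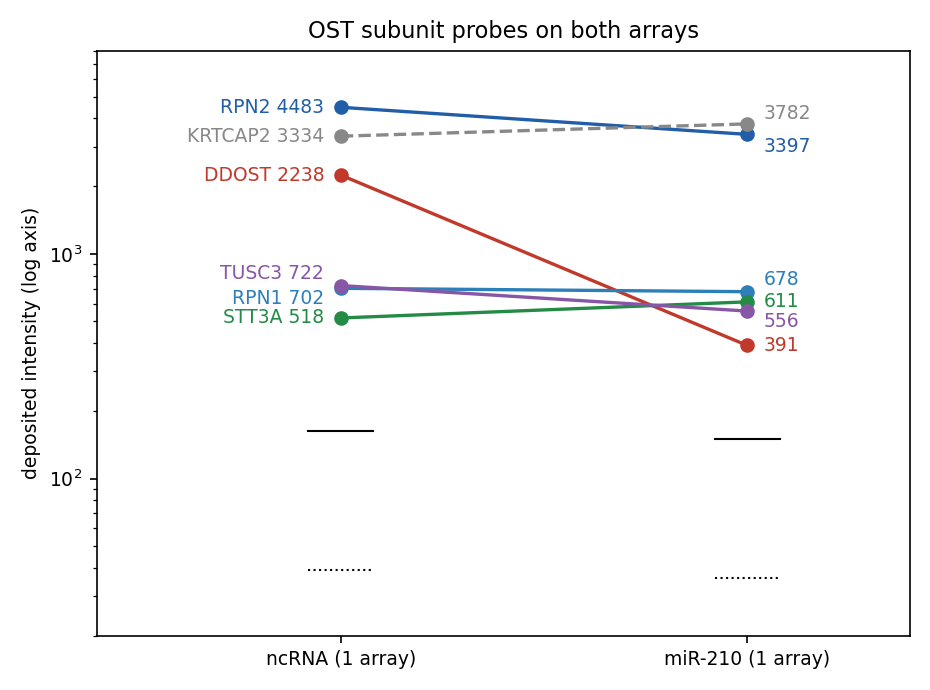
Deposited intensity (log axis) of the 5 measured OST subunits and of KRTCAP2 (dashed) for each array, 1 point per array, with the 75th percentile (solid bar) and median (dotted bar) of each array. DDOST went from 2238 to 391. With miR-210, RPN2 was at 75.8% of its deposited ncRNA value, TUSC3 at 77.0%, RPN1 at 96.6% and STT3A at 118%. KRTCAP2 went from 3334 to 3782. Heights of different probes cannot be compared, only the slope of each line.

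DDOST, the subunit that with the ribophorins forms the shared part of both OST complexes, read 2238 with ncRNA and 391 with miR-210. The miR-210 value was 17.5% of the ncRNA value as deposited. After normalization the log2 ratio was -2.37, or 5.16-fold lower with miR-210. DDOST has 1 probe, so no second probe on these arrays checks the value. Both readings lay above the 75th percentile of their array, so neither was near the bottom of the intensity range. In RNA from a whole culture, less DDOST RNA in every cell and a loss in part of the cells cannot be told apart.

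RPN1, the ribophorin that stands beside DDOST in the shared core, read 702 with ncRNA and 678 with miR-210. Its log2 ratio was 0.07, and -0.05 on the deposited scale without normalization, so RPN1 has no settled sign. RPN2, the second ribophorin of the core, read 4483 and 3397, a log2 ratio of -0.23. The value for RPN2 was 1.17-fold lower with miR-210, under the scatter of probes of one gene.

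STT3A, the catalytic subunit of the translocon-bound complex, read 518 with ncRNA and 611 with miR-210, which is 1.27-fold higher at a log2 ratio of 0.35. TUSC3, an oxidoreductase subunit of the STT3B complex, read 722 and 556, a log2 ratio of -0.27 or 1.21-fold lower. STT3A thus lay 0.62 above TUSC3 on the log2 scale, from 1 probe each. Each was within the probe SD of 0.44 from 0, and no test of the gap between them was possible.

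Because the set was chosen for the ratio of DDOST, its distance from the other subunits follows in part from that choice and is given only as a description. On the log2 scale DDOST lay -2.14 from RPN2, -2.09 from TUSC3, -2.44 from RPN1 and -2.72 from STT3A. Against the median of the other 4 subunits DDOST was 4.9-fold lower, while those 4 spanned 0.62. RPN1 and RPN2, which share both complexes with DDOST, had log2 ratios of 0.07 and -0.23. STT3A and TUSC3, which belong to 1 complex each, had 0.35 and -0.27, and all 4 were within the probe SD of 0.44 from 0.

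Of the OST subunits, 1 of 5 was lower and 0 of 5 were higher by at least 2-fold. All 5 subunits lay above the 75th percentile of level, where ratios scatter less: of the 3467 genes there, 2.8% were lower and 2.74% higher by that fold. Of those brighter genes, 54.1% had a log2 ratio inside the range spanned by RPN1, RPN2, STT3A and TUSC3. In the order of the 12405 genes from the lowest ratio, DDOST was at place 77, TUSC3 at 3728, RPN2 at 4090, RPN1 at 6688 and STT3A at 8919.

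**Figure D2:**
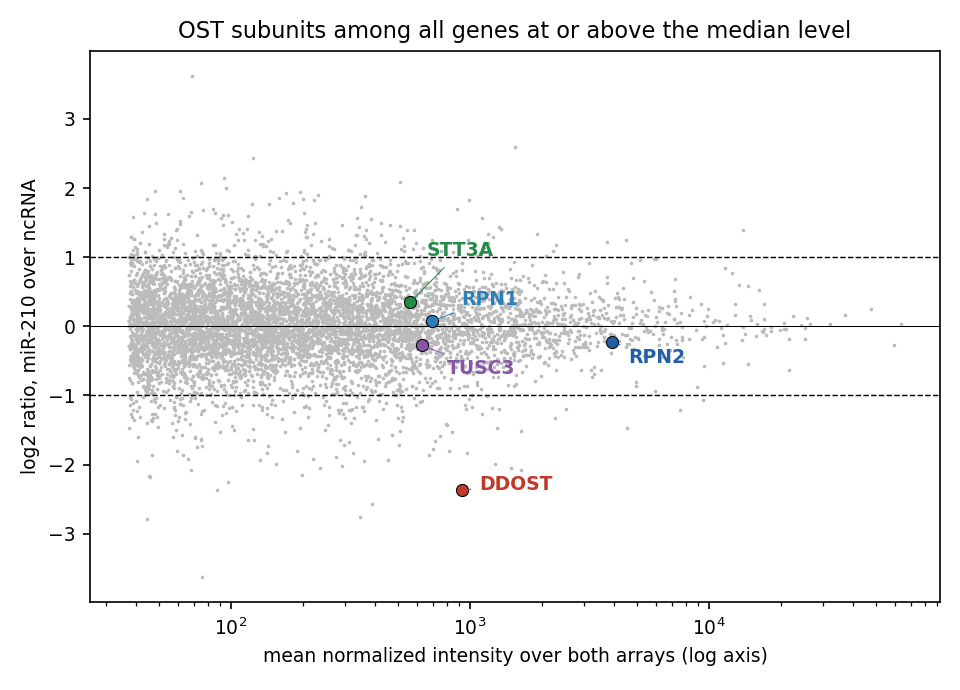
Log2 ratio of miR-210 over ncRNA against mean normalized intensity (log axis) for the 6684 genes at or above the median level (grey), with the 5 OST subunits in colour and dashed lines at 2-fold. DDOST lies at -2.37, under the body of the cloud, and RPN1, RPN2, STT3A and TUSC3 lie inside it.

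Among the 6684 genes at or above the median level, of which 3.19% were lower and 3.02% higher by 2-fold or more, DDOST had the 5th lowest log2 ratio. Counted over probes with and without 1 gene symbol, it was 10th of 12090, behind 4 probes with 1 symbol and 5 others. The genes just below it in ratio were PLAC8 at -2.78, RNF11 at -2.76 and STMN1, the gene of the microtubule-destabilising protein stathmin, at -2.57. Just above it came THBS1, the gene of the matricellular protein thrombospondin 1, at -2.36, the kinase gene AAK1 at -2.26 and CARMIL1 at -2.17. By absolute difference in log2 ratio over the 2 arrays, THBS1 was nearest to DDOST, at 0.006, followed by AAK1 at 0.11 and CARMIL1 at 0.20. With only 2 arrays any gene of like ratio has the same pattern, so likeness here means a ratio of the same size and nothing more.

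Each of these neighbours was measured by 1 probe. On the ncRNA and miR-210 arrays PLAC8 read 121 and 17, THBS1 206 and 37, AAK1 221 and 43 and CARMIL1 101 and 21, so that PLAC8 and CARMIL1 lay under the median of 36 on the miR-210 array and THBS1 and AAK1 just above it. RNF11 (949 and 129) and STMN1 (1003 and 153) stayed well above that median, as did DDOST. Among the 6684 genes at or above the median level, a filter that leaves out dimmer genes, 15 were lower by 4-fold or more. Of these 15, 10 still read above the median of the miR-210 array and 4, DDOST among them, read above its 75th percentile. Within the 3467 genes above the 75th percentile of level, DDOST was the 3rd lowest. RNF11 and STMN1 had lower ratios there, and KIAA0930 (435 and 90, log2 ratio -2.14) and FLII (3596 and 758, -2.08) followed; KIAA0930 and FLII were named after their values were seen.

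The value of DDOST barely moved with the scaling of the arrays. It was -2.52 on the deposited scale, -2.44 after median scaling, -2.38 after a loess correction on level and -2.32 with an offset of 16 added to every intensity, and its place was 4 or 5 from the lowest under all of these. RPN2 and TUSC3 stayed under 0 and STT3A above it under the same 5 scalings, and RPN1 changed sign on the deposited scale. On that scale the median of the 12405 genes was -0.08 and that of the genes at or above the median level -0.12. Counts of genes at least 2-fold apart were 213 lower and 202 higher after quantile normalization, or 48.7% higher, and 318 lower and 140 higher on the deposited scale, or 30.6% higher.

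**Figure D3:**
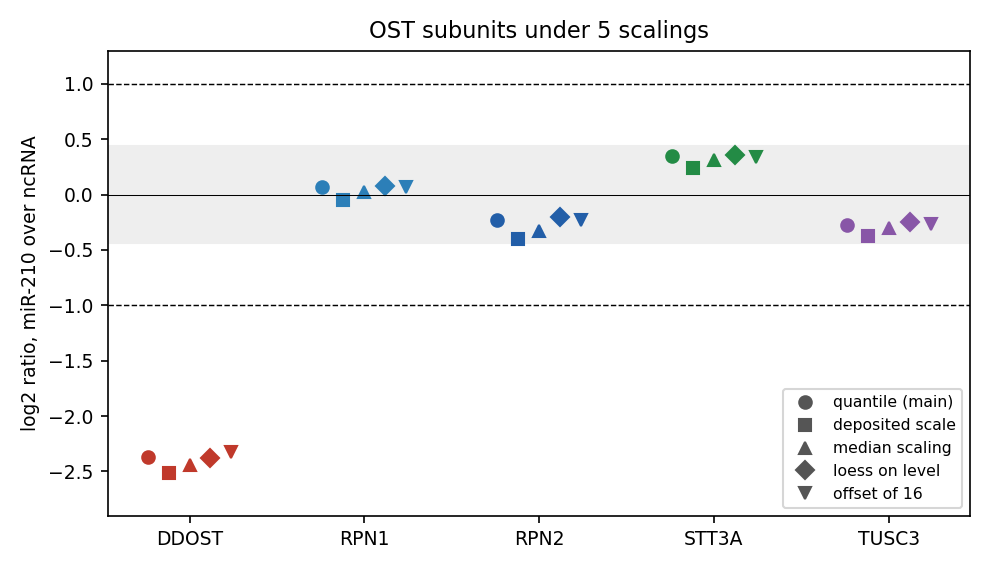
Log2 ratio of each measured OST subunit under 5 scalings (symbols), with the probe SD of 0.44 either side of 0 shaded and dashed lines at 2-fold. DDOST stays between -2.52 and -2.32, and every value of the other 4 subunits lies inside the shaded band.

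KRTCAP2, a small subunit of the STT3A complex outside the named set, read 3334 with ncRNA and 3782 with miR-210. Its log2 ratio, from 1 probe, was 0.39, and 0.18 on the deposited scale. Like the 0.35 of STT3A, the value was within the probe SD of 0.44 from 0. OST4 and TMEM258, further small subunits, had no probe of that name in the annotation used here.

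Around the OST, 8 lists of the steps before and after glycan transfer and of related glycosylation held 130 genes, of which 102 were measured. Of these 102 genes, 3 were higher (2.94%) and 2 lower (1.96%) by 2-fold or more, beside 7.05% and 6.95% of all genes. Among genes at or above the median level 3.02% and 3.19% were so, but the lists had no level filter. PMM2 (7 and 18), among the higher, and PIGQ (20 and 8), among the lower, lay under that level. At such shares a short list often holds no gene 2-fold apart, so nothing is read from a list with none. The median log2 ratio of the 102 genes was 0.00, and the lowest of them stood at -1.31. DDOST lay below that, but the set was chosen for its low ratio, so nothing is read from the gap.

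The glycan that the OST transfers is first built on dolichol, a long-chain lipid of the endoplasmic reticulum membrane. Of 24 genes of this assembly line 16 were measured, with 10 above 0, 6 under it and none 2-fold apart. The median log2 ratio was 0.09, and -0.04 on the deposited scale. DOLPP1, the phosphatase that recycles dolichyl pyrophosphate left over by the OST, read 434 and 211 (log2 ratio -0.92, and 2.06-fold lower on the deposited scale). DOLK, the dolichol kinase, read 370 and 502, a log2 ratio of 0.55. DPAGT1, which adds the first sugar, stood at 0.28 and ALG6, which adds the first glucose, at 0.37. DHDDS, a subunit of the enzyme that makes the dolichol chain, had a dim probe (39 and 23; -0.67). ALG10 had a second, dim probe (15 and 3) at -2.32 beside its brighter one (85 and 90) at 0.21.

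**Figure D4:**
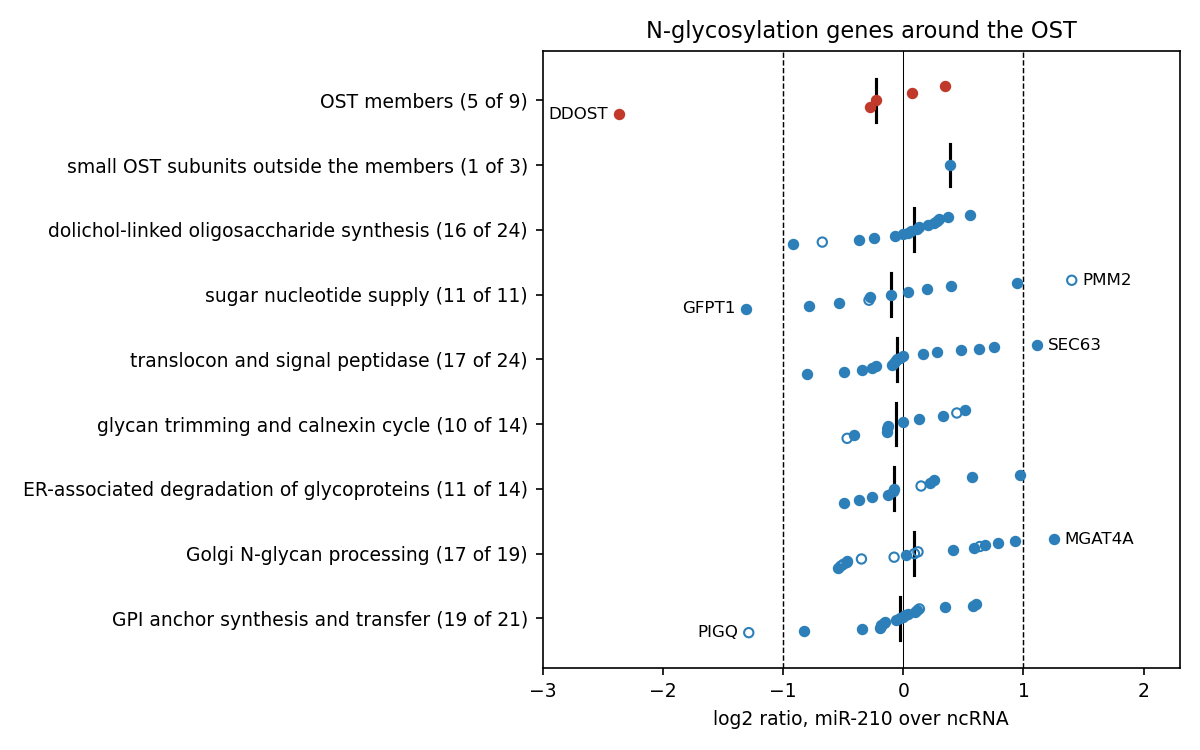
Log2 ratio of miR-210 over ncRNA for each measured gene of the OST and of 8 surrounding lists, with the number measured of the number listed; filled points are at or above the median level, open points under it, black bars are medians and dashed lines mark 2-fold. DDOST, for whose low ratio the set was chosen, lies at -2.37, and the next lowest gene drawn is GFPT1 at -1.31. Each gene is drawn by its brightest probe, which leaves out the dim second probe of ALG10 at -2.32.

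The sugars come as nucleotide or phosphate donors. All 11 listed genes of their supply were measured, with a median of -0.10. GFPT1, the first and rate-limiting enzyme of the hexosamine pathway that leads to UDP-GlcNAc, read 868 and 322, or 2.48-fold lower with miR-210. GNPNAT1 and UAP1, later enzymes of the same pathway, stood at -0.54 (1666 and 1026) and -0.28 (980 and 728), while PGM3, which acts between them, stood at 0.40. The single gene at least 2-fold higher was PMM2, a phosphomannomutase whose probe read only 7 and 18, and the fold was 1.5 with the offset. PMM1, its paralog, read 120 and 216 (0.95), and MPI, the mannose phosphate isomerase, 57 and 31 (-0.78).

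Proteins reach the OST through the translocon. Of 24 genes of targeting, translocon and signal peptidase 17 were measured, with 6 above 0, 11 under it and a median of -0.05. SEC61A2 was the only SEC61 channel gene measured, on a dim probe (26 and 24), so the median says little of the channel. SEC63, a translocon partner that recruits the chaperone BiP, read 497 and 987, or 2.17-fold higher, and 1.99-fold on the deposited scale. SSR3, SSR2, SSR1 and SSR4, subunits of the translocon-associated protein complex that lies next to the OST, had log2 ratios of -0.80, 0.63, -0.09 and 0.00 in that order.

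After transfer, glucosidases and the calnexin cycle read the glycan. Of 14 genes 10 were measured, none was 2-fold apart and the median was -0.06, or 0.10 over those above the 75th percentile of level. PRKCSH was the only glucosidase subunit gene measured, on a dim probe (30 and 26), so the median says little of the glucosidases. CANX, the lectin chaperone calnexin, read 6533 and 7797 (0.51, and 0.26 on the deposited scale). CALR, its soluble counterpart calreticulin, had a dim probe (24 and 17; -0.47), and the glucosyltransferase genes UGGT1 and UGGT2 stood at 0.13 and -0.41. Genes that remove misfolded glycoproteins had a median of -0.08 over 11 of 14 measured, again with none 2-fold apart. DERL2, a membrane protein of that route, read 60 and 110 (0.97), DERL1 851 and 1134 (0.57), and HERPUD1 488 and 322 (-0.49). NGLY1, which cleaves N-glycans from proteins in the cytosol, stood at -0.37.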

How the data were processed

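Total RNA of 2 transfected cultures was measured, 1 array each. Per the labels' protocols, 500 ng of RNA gave Cy5-labelled aminoallyl-cRNA, hybridised to a 1-colour Toray chip. The deposited values are intensities on a linear scale, whole numbers from -8 to 65496; values under 0 show that a background was subtracted before deposit. Which scanner and which normalization were used is not given in the sources used here. Readings above 65000, near the scanner limit, numbered 5 and 1, none of them on an OST probe.

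Values were taken to log2 for 24177 probes above 0 on both arrays (90 left out) and quantile normalized. Symbols came from the platform annotation (13395 probes with 1 symbol, the other 10872 counted as unnamed), with 2285 updated through RefSeq synonyms. A gene took its brightest probe. Members and lists had no level filter; where named, the filter was the median level (37.5) or the 75th percentile (155.5). With 1 array per group no test was made; at least 2-fold apart is a size rule. Named genes were all members, pathway list genes 2-fold apart or farthest from 0, markers needed to check the label, and the 3 genes either side of DDOST in ratio; further list genes were chosen for their role after their values were seen. The members and lists were chosen with earlier results of these data known. The scripts (Python 3.11.15, pandas 2.3.3, statsmodels 0.14.6) were tested on simulated data. The number of arrays limits the precision.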

Additional observations from a re-analysis of the deposited data

How the results depend on the processing

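All values rest on 1 array per group and 1 probe per OST subunit, so leaving out a replicate was not possible and no error between cultures exists. The alternatives were the deposited scale, median scaling, loess on level, an offset of 16, the mean over probes and other level filters. DDOST ranged from -2.52 to -2.32, RPN1 from -0.05 to 0.08 and RPN2 from -0.40 to -0.20. STT3A ranged from 0.24 to 0.36 and TUSC3 from -0.38 to -0.25. The counts of 1 subunit lower and 0 higher by 2-fold held under each change of scaling and with the offset. The mean over probes and the level filters could not alter the OST values, since each subunit has 1 probe, above the 75th percentile of level. Of 116 values under alternatives, which include those that could not move, 110 moved by less than the probe SD or, for counts, by no more than 1.5 times. The others follow from the filter, except the offset, which shrinks ratios of dim genes. With no level filter 862 genes were 2-fold lower and 874 higher, with the filter at the 75th percentile 97 and 95, and with the offset 134 were higher. The Golgi list had a median of 0.585 over its 9 members at or above the median level, in place of 0.09 over all 17. Of list genes at least 2-fold apart, GFPT1 was so under all 5 scalings, SEC63 not on the deposited scale, and MGAT4A, PMM2 and PIGQ not with the offset.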

Other observations

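Golgi enzymes that process the N-glycan after it leaves the endoplasmic reticulum were measured for 17 of 19 genes, 8 of them under the median level. Of the 17, 10 were above 0 and 7 under it, with a median log2 ratio of 0.09 that was 0.00 on the deposited scale. MGAT4A, an N-acetylglucosaminyltransferase that adds a branch, read 26 and 59, or 2.39-fold higher with miR-210, and 1.85-fold with the offset of 16. The mannosidase gene MAN1A2 stood at 0.93 (53 and 93), the CMP-sialic acid transporter gene SLC35A1 at 0.79 (212 and 340) and FUT8, the core fucosyltransferase, at 0.68 (206 and 304). MGAT2, which starts the second branch, stood at -0.54 (223 and 142) and the UDP-GlcNAc transporter gene SLC35A3 at -0.47 (759 and 505).

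Synthesis of the glycosylphosphatidylinositol (GPI) anchor uses the same dolichol-phosphate mannose as the glycan of the OST. Of 21 genes 19 were measured, 8 above 0 and 10 under it, with a median of -0.03. PIGC, a subunit of the first enzyme of the pathway, read 367 and 192 (-0.82), and PIGV, a mannosyltransferase, 102 and 143 (0.60). PIGQ read only 20 and 8 (-1.28), and the fold was 1.48 with the offset. PIGK, the catalytic subunit of the GPI transamidase, stood at -0.06, and its partners PIGT, PIGS, PIGU and GPAA1 at 0.00, -0.34, 0.34 and -0.15. No measured subunit of the transamidase was 2-fold apart, beside 6.95% of all genes lower and 7.05% higher, so nothing is read from that.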
